A study of Homo sapiens with 6 samples.

Results

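The genes described here are 205 protein-coding genes on the long arm of chromosome 19 (19q), of 60617 gene IDs with a value. They were chosen by a rule that took every protein-coding gene starting between bases 33100000 and 57500000 of chromosome 19 (GENCODE, GRCh38) whose mean value over all 6 libraries was at least 150, and then left out zinc finger genes (symbols starting with ZNF), ribosomal and respiratory chain genes, and 6 single genes. The segment held 760 protein-coding genes, of which 265 reached the level and 60 of those were left out by symbol, 46 of them zinc finger genes. RNA-seq was carried out on 3 groups of 2 libraries each: PBRT16 cells in 500 nM PLX8394, PBRT15 cells in 500 nM PLX8394, and 1205LuTR parental cells in DMSO. 1205Lu is a human melanoma cell line, and 1205LuTR cells carry a GAL4-ELK1 reporter of ERK pathway activity. PLX8394 is a "paradox breaker" BRAF inhibitor, and PBRT15 and PBRT16 are lines established from tumors of these cells that had become resistant to it in vivo. Each resistant line is a single line, both were cultured in the drug and the parental cells were not, so line and drug cannot be told apart in any comparison with parental cells. The labels do not tell if the 2 libraries of each group are from different cultures, and p-values then measure only the spread between these libraries.

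Chromosome 19 is the most gene-dense human chromosome, and its long arm carries clusters of zinc finger genes together with many genes that every cell uses. Neighbouring genes here are mostly unrelated in function, although some start head to head with a neighbour or are read through into the next gene. The members listed here include the ferritin light chain gene FTL, subunits of splicing, SUMO and transcription complexes, kinases and phosphatases, adhesion proteins, and proteins of the endoplasmic reticulum and Golgi. DNA copy number was not analysed here.

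The values were normalized by the authors and are not whole counts, so sequencing depth is unknown, and library totals lay between 27877963 and 29580752. SOX10, the neural crest transcription factor whose loss the study is about, had values of 1.495 and 0.778 in PBRT16, 0 and 0.791 in PBRT15, and 4360 and 4103 in parental cells. The 8 melanocyte lineage markers checked, SOX10 included, summed to between 2214 and 2242 in PBRT16, between 847 and 953 in PBRT15, and between 12315 and 15490 in parental cells, and 4, 5 and 4 of them were under 10 in both libraries of PBRT16, PBRT15 and parental cells. S100B carried most of the parental sum, with 1.154 and 1.216 in PBRT16, 0 and 1.666 in PBRT15, and 10992 and 8075 in parental cells, while MITF went the other way, with 2209 and 2159 in PBRT16, 824 and 927 in PBRT15, and 109 and 113 in parental cells. The tyrosinase gene TYR was at 0 in all 6 libraries. The fibroblast list, with 5 genes, summed to between 8815 and 10642 in PBRT16, between 36925 and 38190 in PBRT15, and between 5956 and 6875 in parental cells. Its genes disagreed: THY1 had 8.14 and 6.84 in PBRT16, 19573 and 19758 in PBRT15, and 0 and 4.46 in parental cells, whereas PDGFRB had 5447 and 6253 in PBRT16, 3023 and 3557 in PBRT15, and 161 and 273 in parental cells, and LUM was under 5 in all 6 libraries. The 5 immune markers summed to between 2151 and 3124 in PBRT16, between 2203 and 2727 in PBRT15, and between 822 and 1263 in parental cells, nearly all of it CD68, while the leukocyte and T cell markers PTPRC and CD3E were under 3 and at 0 in all 6 libraries. The part of these markers in the results below was not tested.

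The 19q genes as a group were highest in PBRT15, and PBRT16 lay close to parental cells. Each gene's log2(value + 1) was set against its own mean over the 6 libraries, and the median over the 205 members was −0.12 and −0.12 in PBRT16, 0.43 and 0.41 in PBRT15, and −0.35 and −0.23 in parental cells. The 3 groups did not overlap, and the SD of these medians within groups was 0.0524. The 267 genes of the short arm (19p) chosen by the same level and symbols had medians of 0.10 and 0.08 in PBRT16, 0.12 and 0.11 in PBRT15, and −0.26 and −0.08 in parental cells, so that the resistant lines lay together there. Of the 205 members, 9 had their highest group mean in PBRT16, 175 in PBRT15 and 21 in parental cells. The shares of all genes tested were not taken, and the segment may have been chosen for the difference between PBRT16 and PBRT15. Nothing is therefore read from these counts.

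**Figure D1:**
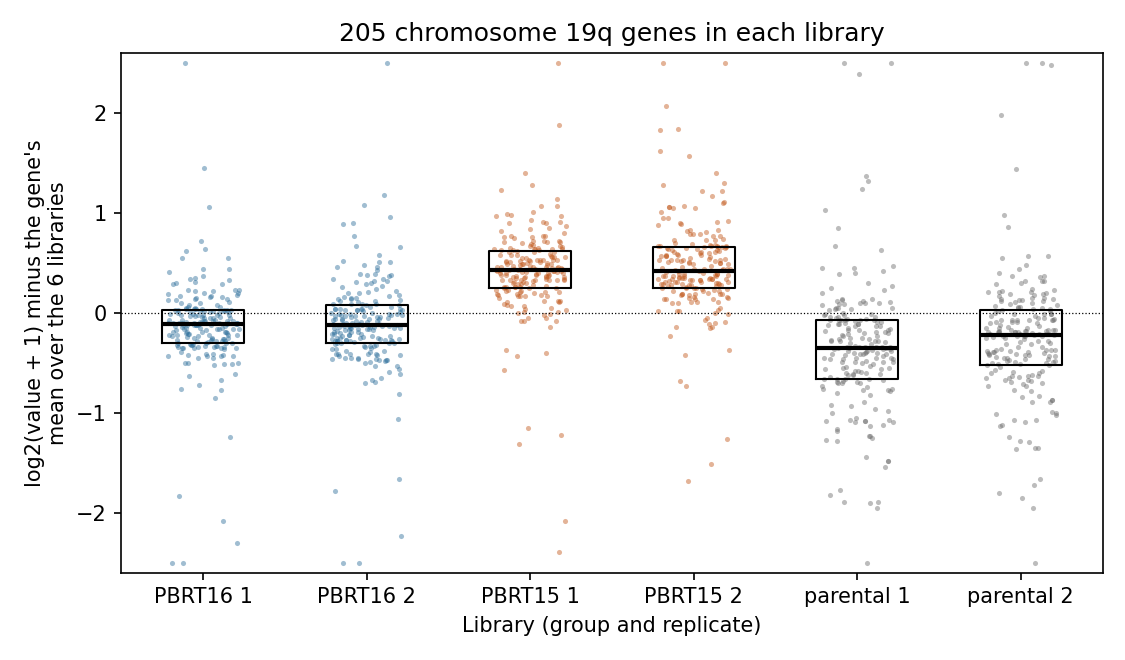
Each point is 1 of the 205 members in 1 library; the y axis gives log2(value + 1) minus the gene's mean over the 6 libraries, and boxes give the median and quartiles. The medians are −0.12 and −0.12 in PBRT16, 0.43 and 0.41 in PBRT15, and −0.35 and −0.23 in parental libraries; 5 members lie beyond 2.5 in some library and are drawn at that limit.

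PBRT16 was compared with PBRT15 to follow the difference between the resistant lines along the segment. The rule asks for parental cells, PBRT15 and PBRT16 to be compared along the segment, without saying which comparison led to it. The segment was proposed after PBRT16 and PBRT15 had been compared along the chromosomes, so that comparison was treated as used by the choice. It is given as a description, with no test. The median log2 difference over the members was −0.53 (quartiles −0.77 and −0.36), which is a ratio of 0.691. The difference was below 0 in 193 members and above 0 in 12. Both PBRT16 libraries lay below both PBRT15 libraries in 172 members (83.9%), against 31.8% of the 16555 genes tested, and above them in 6 members, against 30.9% of all genes tested. Because the segment may have been chosen for this difference, nothing is read from these shares. Around the median, 115 members (56.1%) lay within 0.25 on the log2 scale, 170 (82.9%) within 0.5 and 194 (94.6%) within 1, and the SD over members was 0.59. Such a spread was not particular to the members. With the same level and symbols, the quartiles were −0.22 and 0.20 in the 19p genes and −0.27 and 0.26 on other chromosomes. The median absolute log2 difference between replicates was 0.13 in PBRT16, 0.16 in PBRT15 and 0.17 in parental cells.

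The difference between the resistant lines changed little with position. In all 191 running windows of 15 neighbouring members the median was below 0, and it lay between −0.72, from SNRNP70 to AP2A1, and −0.38, from GEMIN7 to QPCTL. Since 193 members were below 0 and neighbouring windows share most of their members, nothing is read from the sign of these medians. In 8 bins of fixed position the medians lay between −0.71, over 4 members starting at 51 to 54 Mb, and −0.44, over the 23 members starting before 36 Mb. It also changed little with the strand or the level of the gene: the median was −0.58 over 122 members on the plus strand and −0.47 over 83 on the minus strand, and it was −0.52, −0.57 and −0.53 in members of low, middle and high mean value, in 3 groups of like size. Adjacent members were hardly more alike than members taken anywhere in the segment, with a median absolute gap of 0.30 between the differences of 204 neighbouring pairs and of 0.32 over all 20910 pairs. In 8 pairs that start head to head within 1000 bp of each other the median gap was 0.17.

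Genes at the edges of the rule had similar values. The 3 genes just before the segment, GPATCH1, RHPN2 and CEP89, differed between PBRT16 and PBRT15 by −0.70, −0.43 and −0.62, and the first 3 members, LRP3, CEBPG and PEPD, by −0.43, −0.29 and −0.89. The last 3 members, CCDC106, U2AF2 and EPN1, differed by −0.44, −0.49 and −0.30, and the next genes after the segment, ERVK3-1, TRIM28 and CHMP2A, by −0.73, −0.65 and −0.68. At the level threshold, CA11, IRF2BP1 and SPACA6 stood just inside with means of 155.0, 160.3 and 162.8 and differences of −0.51, −0.89 and −1.07. SERTAD1, LENG1 and FAM98C stood just outside with means of 144.9, 143.8 and 136.7 and differences of −1.24, −0.72 and −0.89. The 12 genes of 19q before the segment were all below 0 (median −0.38), as were the 5 genes after it (median −0.68). The 46 zinc finger genes left out of the segment had a median of −0.62, with 40 below 0. The 267 genes of 19p had a median of −0.04, with 148 below 0 and 119 above, and 9571 genes of other chromosomes had a median of 0.00. By chromosome, the median was −0.52 on chromosome 12 and between −0.15 and 0.09 on the other 21.

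**Figure D2:**
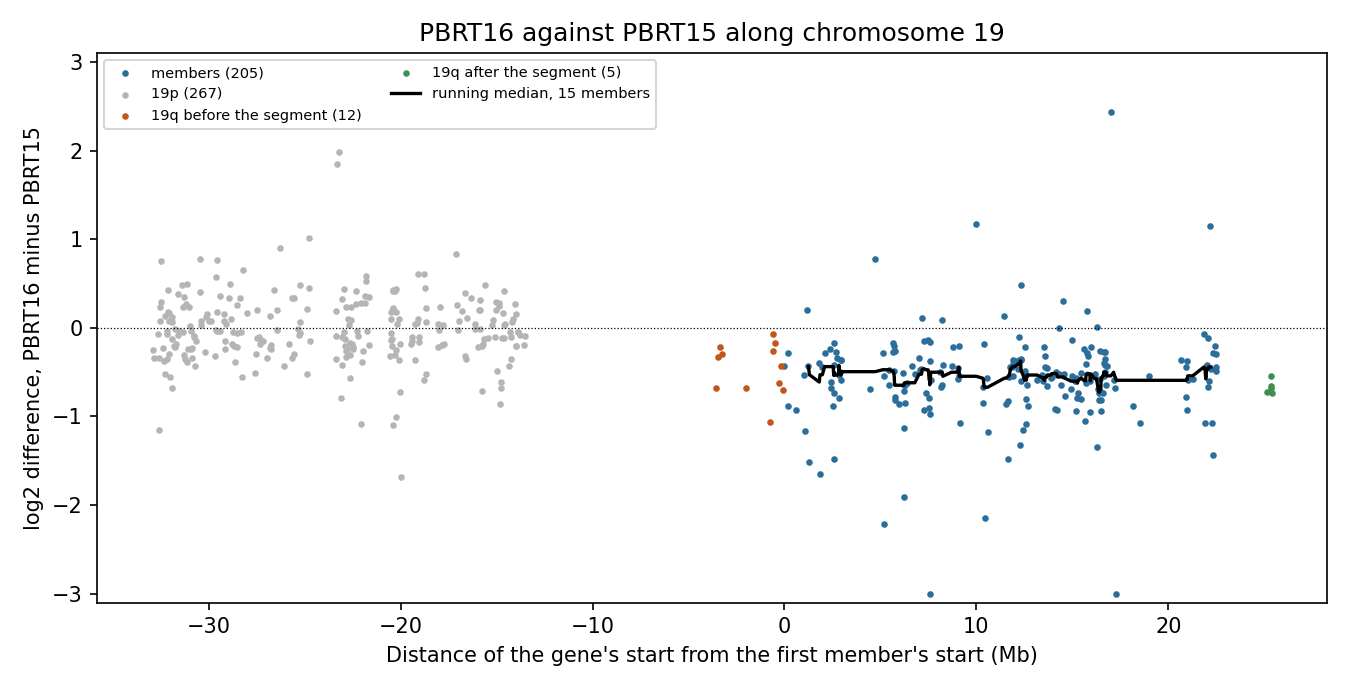
The log2 difference of PBRT16 minus PBRT15 is plotted against the distance of each gene's start from the first member's start, in Mb, for the 205 members, 267 genes of 19p, 12 genes of 19q before the segment and 5 after it, with the running median over 15 members as a line. The line stays between −0.72 and −0.38 while the 19p genes have a median of −0.04; 2 members beyond 3 are drawn at that limit.

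Against parental cells, the members were higher by a median log2 fold change of 0.18 in PBRT16 (quartiles −0.24 and 0.58, ratio 1.13) and of 0.69 in PBRT15 (quartiles 0.29 and 1.17, ratio 1.62). Rose and fell mean an adjusted p of at most 0.05 by limma over all 16555 genes tested. In PBRT16, 56 members rose (27.3%, against 21.1% of all genes tested) and 22 fell (10.7%, against 19.03%), and 127 did not pass the test. In PBRT15, 123 members rose (60.0%, against 21.6% of all genes tested) and 9 fell (4.39%, against 19.5%), and 73 did not pass. A fold of at least 2 was reached by 27 of the rises and 11 of the falls in PBRT16, and by 67 of the rises and 7 of the falls in PBRT15. Of the members, 55 rose in both lines, 66 rose in PBRT15 without passing the test in PBRT16, 1 rose in PBRT16 without passing in PBRT15, 9 fell in both, 11 fell in PBRT16 without passing in PBRT15, 2 rose in PBRT15 and fell in PBRT16, and 61 passed in neither. The shares of all genes tested were not taken for the fold of 2 or for these joint counts, so nothing is read from them. These comparisons share their parental libraries with each other and were known, like that of PBRT16 with PBRT15, when the segment was proposed, so the counts and p-values are no independent evidence about the segment. In 22 members the mean of at least 1 group was under 150, so that they met the level through the other groups and some difference was built into the choice. They include MIA, CADM4 and IL11, which reached 150 in parental cells alone, EMC10 and SPRED3, which were under it in PBRT16, MYH14, which was under it in PBRT15, PSG5, BCL3 and ZFP36, which were under it in parental cells, and ALDH16A1, which reached it in PBRT15 alone.

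The values against parental cells moved when trends with GC content and length were removed together, by a correction chosen after the data were seen. GC content and length were not separated, and why the values moved was not tested. The median GC content of the longest transcript was 59.1% in the members, 60.4% in the 19p genes and 47.8% in all genes tested. The 19p genes had medians of 0.28 in PBRT16 and 0.27 in PBRT15 against parental cells, with 29.2% and 30.3% of them rising. With each library's trend with GC content and length removed, the members' median became −0.13 in PBRT16 and 0.36 in PBRT15 against parental cells, while that of PBRT16 against PBRT15 was −0.49. The median of all genes in that fit was −0.06 in PBRT16 and −0.07 in PBRT15 against parental cells. Fewer members passed when 1 library was left out, but such fits leave 1 library in a group, so no counts are given. Without parental replicate 1 the members' medians were 0.13 in PBRT16 and 0.62 in PBRT15.

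Along the segment, the fold changes against parental cells varied more than the difference between the resistant lines. Windows of 15 members had medians between −0.44 and 1.04 in PBRT16, with 40 of 191 below 0, and between 0.10 and 1.48 in PBRT15, with none of the 191 below 0. Both lines were highest over the same stretch, from PPP1R15A to RRAS, and lowest over neighbouring stretches, from DMAC2 to KCNN4 in PBRT16 and from ARHGEF1 to PVR in PBRT15. In the fixed bins, members starting at 42 to 45 Mb had medians of −0.19 in PBRT16 and 0.20 in PBRT15, and members starting at 48 to 51 Mb had medians of 0.45 in PBRT16 and 0.98 in PBRT15. From the first bin to the last, 3 of 23, 3 of 20, 6 of 33, 5 of 18, 8 of 40, 23 of 45, 1 of 4 and 7 of 22 members rose in PBRT16, against 21.1% of all genes tested. In PBRT15 the counts in the same bins were 11, 11, 22, 7, 21, 36, 4 and 11, against 21.6%.

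**Figure D3:**
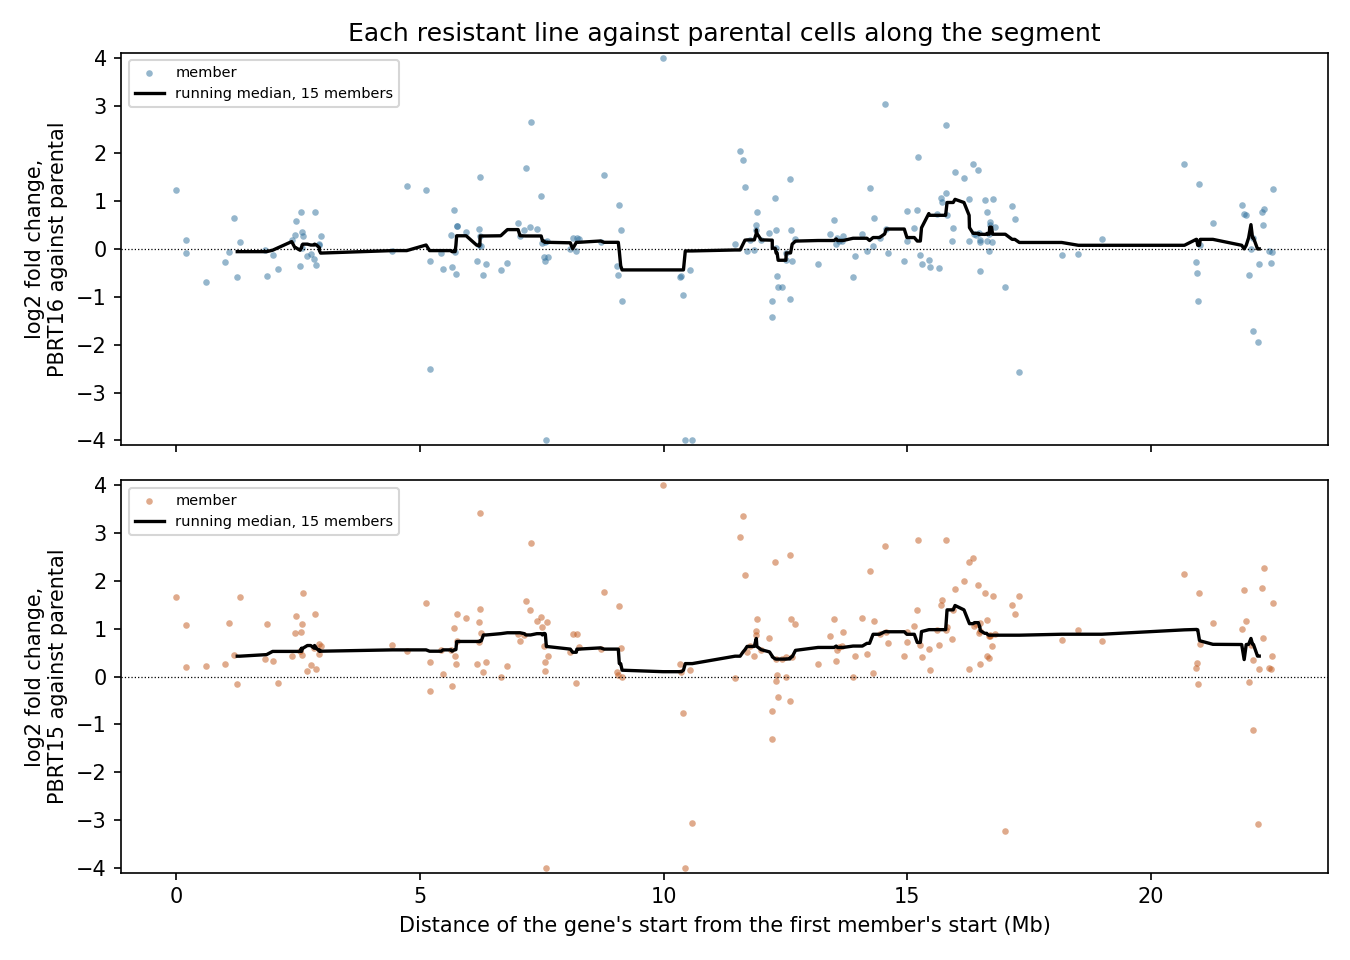
The log2 fold change against parental cells is plotted for PBRT16 (top) and PBRT15 (bottom) against the distance of each member's start from the first member's start, in Mb, with the running median over 15 members as a line. The lines run between −0.44 and 1.04 in PBRT16 and between 0.10 and 1.48 in PBRT15 and peak over the same stretch; 4 members in PBRT16 and 3 in PBRT15 lie beyond 4 and are drawn at that limit.

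EMC10, a subunit of the endoplasmic reticulum complex that inserts membrane proteins (chr19:50476400-50490871, GRCh38), left the common pattern furthest. Its values were 71.0 and 74.6 in PBRT16, 1313 and 1498 in PBRT15, and 417 and 457 in parental cells. PBRT16 lay far below and PBRT15 far above the parental libraries, with no overlap between any groups. The log2 fold change against parental cells was −2.57 ± 0.13 (SE) in PBRT16 (adjusted p = 0.000368, limma) and 1.68 ± 0.13 in PBRT15 (adjusted p = 0.00113, limma), and the difference of PBRT16 from PBRT15 was −4.25. The genes beside it, named after their values were seen, did not share this. NR1H2 and POLD1 before it differed between PBRT16 and PBRT15 by −0.59 and −0.68, and JOSD2, which starts 29 kb after it and is no member because of its level, by −0.61.

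MYH14, the heavy chain of a non-muscle myosin, starts 288 kb before EMC10 and went the other way. Its values were 175 and 206 in PBRT16, 29.6 and 39.4 in PBRT15, and 305 and 351 in parental cells. Both resistant lines lay below parental cells, and PBRT16 lay above PBRT15, by 2.44 on the log2 scale. The fall in PBRT15 was 3.22 ± 0.19 on the log2 scale (adjusted p = 0.000572, limma). The fall of MYH14 in PBRT16 (log2 fold change −0.78 ± 0.19) lost its call without any 1 of parental replicates 1 and 2 and PBRT16 replicates 1 and 2.

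A set of members had high values in parental cells and low values in both resistant lines. MIA, which encodes a protein secreted by melanoma cells, was at 0 and 0 in PBRT16 and at 6.98 and 38.2 in PBRT15, against 4005 and 4307 in parental cells. It met the level through parental cells alone, so its values are a description with no p, and no fold is given against a group at 0. MIA lies inside the readthrough gene MIA-RAB4B, and reads from both are hard to tell apart. CADM4, an adhesion molecule of the immunoglobulin family, had 14.3 and 23.3 in PBRT16 and 85.9 and 83.6 in PBRT15, against 5139 and 4960 in parental cells. Its log2 fold change was −8.03 ± 0.24 in PBRT16 and −5.88 ± 0.24 in PBRT15, likewise with no p, since it met the level through parental cells alone. KCNN4, a calcium-activated potassium channel, had 175 and 181 in PBRT16 and 420 and 390 in PBRT15, against 3277 and 3482 in parental cells. Its log2 fold change was −4.24 ± 0.11 in PBRT16 and −3.06 ± 0.11 in PBRT15 (adjusted p = 7.81e-05 and 0.000172, limma). All 3 genes were lowest in PBRT16, and in each the 3 groups did not overlap. SMG9, which lies between CADM4 and KCNN4 and is named after its values were seen, had 586 and 488 in PBRT16 and 845 and 745 in PBRT15, against 813 and 645 in parental cells, and passed the test in neither line.

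The promoter windows of these 4 genes are shown because EMC10 had the lowest difference of PBRT16 from PBRT15 and MIA, CADM4 and KCNN4 had the lowest fold changes of PBRT16 from parental cells among the members. Each window runs from 250 bases before to 50 bases after the RefSeq start (GRCh38.p14), 5′ to 3′ on the gene's strand. Such windows were found for 177 of the 205 members, 262 windows in all. In the EMC10 window (chr19:50476257-50476556, plus strand) the capitals mark TGACGTCA, the cAMP response element. In the windows of CADM4 (chr19:43639801-43640100, minus strand), KCNN4 (chr19:43780924-43781223, minus strand) and MIA (chr19:40774910-40775209 and chr19:40775271-40775570, plus strand) the capitals mark ACAAAG on either strand, the core of motifs bound by SOX proteins.
EMC10: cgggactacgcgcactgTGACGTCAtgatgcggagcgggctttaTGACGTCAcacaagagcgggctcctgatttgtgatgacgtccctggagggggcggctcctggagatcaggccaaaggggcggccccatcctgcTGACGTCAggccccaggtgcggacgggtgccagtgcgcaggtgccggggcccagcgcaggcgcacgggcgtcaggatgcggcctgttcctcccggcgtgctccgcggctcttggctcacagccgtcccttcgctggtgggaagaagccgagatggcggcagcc
CADM4: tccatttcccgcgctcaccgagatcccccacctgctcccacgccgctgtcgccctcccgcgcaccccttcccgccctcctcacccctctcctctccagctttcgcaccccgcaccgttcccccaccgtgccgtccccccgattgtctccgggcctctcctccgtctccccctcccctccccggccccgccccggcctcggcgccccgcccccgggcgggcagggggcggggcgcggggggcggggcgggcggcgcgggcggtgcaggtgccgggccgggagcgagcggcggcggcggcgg
KCNN4: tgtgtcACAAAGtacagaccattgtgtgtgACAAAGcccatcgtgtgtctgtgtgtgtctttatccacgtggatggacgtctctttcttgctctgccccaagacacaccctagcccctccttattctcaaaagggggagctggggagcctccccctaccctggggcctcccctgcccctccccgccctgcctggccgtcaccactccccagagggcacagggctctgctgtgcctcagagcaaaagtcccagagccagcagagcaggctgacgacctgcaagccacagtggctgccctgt
MIA, first start: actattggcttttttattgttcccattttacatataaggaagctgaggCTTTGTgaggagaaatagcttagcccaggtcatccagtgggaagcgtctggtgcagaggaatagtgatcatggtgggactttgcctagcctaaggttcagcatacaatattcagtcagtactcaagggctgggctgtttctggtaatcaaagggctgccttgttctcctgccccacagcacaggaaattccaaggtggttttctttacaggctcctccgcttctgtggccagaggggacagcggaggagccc
MIA, second start: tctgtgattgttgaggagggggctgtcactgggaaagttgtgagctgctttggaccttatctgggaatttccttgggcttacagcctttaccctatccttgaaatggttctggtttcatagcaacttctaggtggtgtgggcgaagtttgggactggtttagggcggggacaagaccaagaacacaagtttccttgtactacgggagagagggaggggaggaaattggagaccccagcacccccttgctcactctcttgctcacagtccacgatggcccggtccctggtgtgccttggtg

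The EMC10 window held TGACGTCA 3 times without overlap, and it was the 1 window of 35116 in the table with 3 or more. At least 1 such match was present in 14 of the 262 member windows (5.34%) and in 1.85% of all windows. Of the other 13 members with a match, HAUS5 had 2 matches and the rest had 1. Their differences between PBRT16 and PBRT15 ran from −1.08 in PPP1R12C to −0.07 in RDH13, with −0.61 in HAUS5, −0.68 in RBM42 and −0.36 in OPA3. HAUS5, PPP1R12C and RDH13 are named after their values were seen. TGACGTCA holds a CpG, and the shares of windows were not matched for CpG. ACAAAG was present 2 times in the KCNN4 window and 1 time in the first MIA window, and in neither the second MIA window nor that of CADM4. It was found in 24 member windows (9.16%) and in 16.1% of all windows. The windows differed in composition: that of CADM4 was 81% GC with 42 CpG, that of EMC10 68.7% GC with 29 CpG, that of KCNN4 60.7% GC with 6 CpG, and those of MIA 49.7% and 53.3% GC with 3 and 5 CpG. The median member window was 65.3% GC with 24.5 CpG, against 58.7% GC and 14 CpG over all windows. These matches describe the letters in the windows and do not show binding.

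Further members lay far below the common difference between the resistant lines. SPRED3, a Sprouty-related inhibitor of RAS–ERK signalling, had 50.2 and 103 in PBRT16 and 367 and 311 in PBRT15, against 543 and 317 in parental cells. It fell in PBRT16 (log2 fold change −2.51 ± 0.43, adjusted p = 0.0108, limma), a call lost without parental replicate 1, and did not pass in PBRT15. BCAM, a laminin receptor, had 643 and 688 in PBRT16 and 1607 and 2163 in PBRT15, against 171 and 192 in parental cells, and rose in both lines by log2 fold changes of 1.87 ± 0.18 and 3.36 ± 0.18. WTIP, a LIM domain adaptor protein, had 178 and 173 in PBRT16 and 508 and 500 in PBRT15, against 144 and 172 in parental cells. WTIP thus rose in PBRT15 (log2 fold change 1.67 ± 0.13) and did not pass in PBRT16.

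The 12 members above 0 in PBRT16 against PBRT15 were MYH14, PSG5, IL11, SIPA1L3, RTN2, EHD2, GPI, GYS1, PVR, PLD3, EXOSC5 and PIH1D1, of which SIPA1L3, GYS1, PVR and PIH1D1 are named after their values were seen. In MYH14, PSG5, IL11, RTN2, EHD2 and EXOSC5 both PBRT16 libraries lay above both PBRT15 libraries. PSG5, a pregnancy-specific glycoprotein, had 642 and 1004 in PBRT16 and 502 and 253 in PBRT15, against 3.81 and 0 in parental cells. It met the level through the resistant lines alone, so no p is given, its fold depends on the pseudocount, and its family of near-identical genes makes its value uncertain. IL11, a cytokine of the interleukin 6 family, had 158 and 126 in PBRT16 and 67.5 and 58.4 in PBRT15, against 439 and 672 in parental cells. Its log2 fold changes were −1.94 ± 0.25 in PBRT16 and −3.09 ± 0.25 in PBRT15, and it met the level through parental cells alone. EHD2, an ATPase found at caveolae, had 6792 and 7369 in PBRT16 and 5363 and 6110 in PBRT15, against 877 and 840 in parental cells, and rose in both lines by log2 fold changes of 3.04 ± 0.13 and 2.74 ± 0.13. In SIPA1L3 the replicates were far apart, with 866 and 305 in PBRT16 and 378 and 237 in PBRT15, and the groups overlapped.

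**Figure D4:**
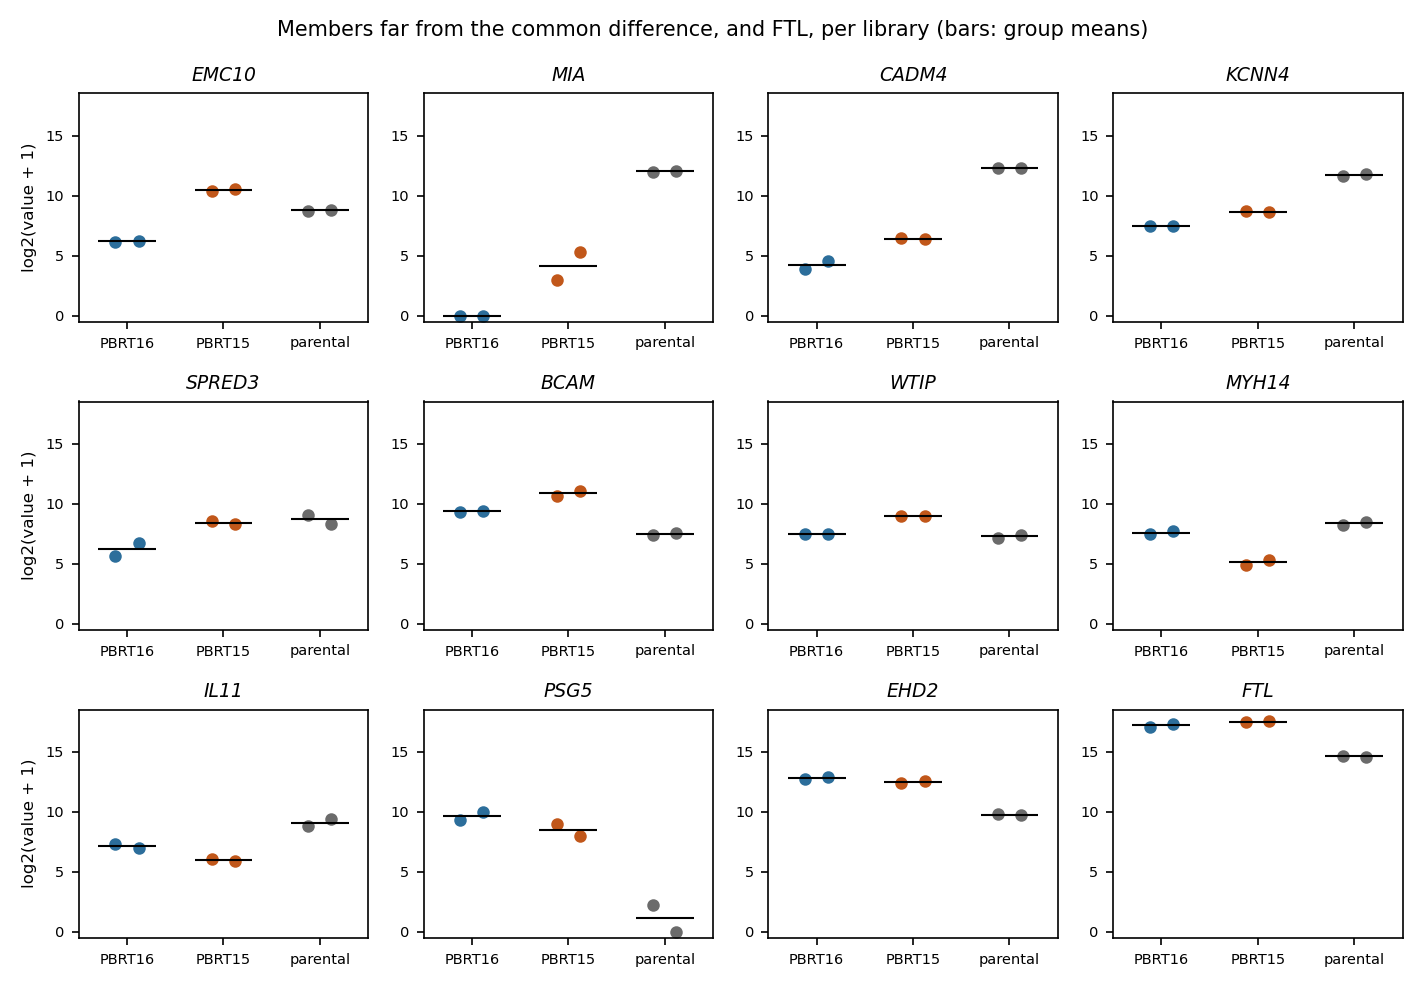
The 12 panels give log2(value + 1) per library for EMC10, MIA, CADM4, KCNN4, SPRED3, BCAM, WTIP, MYH14, IL11, PSG5, EHD2 and FTL; points are libraries of PBRT16, PBRT15 and parental cells and bars are group means. EMC10 is lowest in PBRT16 (71.0 and 74.6) and highest in PBRT15 (1313 and 1498), while MIA, CADM4 and KCNN4 are highest in parental cells.

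By role, the members were sorted into 10 groups that held 161 of them, with 44 in no group. The counts of each role group stand against the shares of all genes tested, of which 21.1% rose and 19.03% fell in PBRT16, with 21.6% rising and 19.5% falling in PBRT15. The genes of metabolism and mitochondria (22 members) had median log2 fold changes of 0.23 in PBRT16 and 0.69 in PBRT15, with 7 rising and 2 falling in PBRT16 and 14 rising and 1 falling in PBRT15. FTL, the light chain of the iron store ferritin, had 137771 and 164245 in PBRT16 and 175221 and 190661 in PBRT15, against 25830 and 24370 in parental cells. It rose by log2 fold changes of 2.58 ± 0.14 in PBRT16 and 2.86 ± 0.14 in PBRT15 (adjusted p = 0.000437 and 0.000337, limma). FTL alone made up 33% and 36.3% of the members' summed value in PBRT16, 30.5% and 32.2% in PBRT15, and 9.04% and 8.04% in parental cells. FTL has many processed copies in the genome, so its value is uncertain by the reads they share. BLVRB, a biliverdin and flavin reductase, had 1030 and 1213 in PBRT16 and 1165 and 1309 in PBRT15, against 166 and 188 in parental cells, and rose in both lines, whose values overlapped. ALDH16A1, of the aldehyde dehydrogenase family, had 159 and 141 in PBRT16 and 390 and 375 in PBRT15, against 65.5 and 79.4 in parental cells, with no overlap between groups. It met the level through PBRT15 alone, so its values are a description with no p. GPI, the glycolytic enzyme that converts glucose 6-phosphate to fructose 6-phosphate, had 10093 and 16843 in PBRT16 and 10884 and 11813 in PBRT15, against 7372 and 9237 in parental cells, and passed in neither line.

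The vesicle and protein trafficking group (20 members) had medians of 0.46 in PBRT16 and 1.04 in PBRT15, with 10 rising and 1 falling in PBRT16 and 16 rising and none falling in PBRT15, against 21.1% and 21.6% of all genes tested rising. The fall in PBRT16 was that of EMC10. RCN3, a calcium-binding protein of the endoplasmic reticulum, had 1690 and 2065 in PBRT16 and 2914 and 3120 in PBRT15, against 520 and 566 in parental cells. KDELR1, the receptor that returns proteins from the Golgi to the endoplasmic reticulum, had 5755 and 6721 in PBRT16 and 8750 and 9698 in PBRT15, against 3625 and 3402 in parental cells. NUCB1, a calcium-binding Golgi protein, had 5648 and 6457 in PBRT16 and 8743 and 9915 in PBRT15, against 2811 and 3361 in parental cells. All 3 rose in both lines and the 3 groups did not overlap in any of them, though in PBRT16 the calls of KDELR1 and NUCB1 were lost without PBRT16 replicate 2, and that of KDELR1 also without parental replicate 2. PLD3, a lysosomal nuclease, had 1383 and 1735 in PBRT16 and 1282 and 1605 in PBRT15, against 479 and 479 in parental cells, so it rose in both lines and the lines overlapped.

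The kinases, phosphatases and signalling proteins (27 members) had medians of 0.31 in PBRT16 and 0.86 in PBRT15, with 10 rising and 2 falling in PBRT16 and 22 rising and 1 falling in PBRT15, against 21.1% and 21.6% of all genes tested rising. CALM3, a calmodulin gene, had 9052 and 9684 in PBRT16 and 14183 and 12933 in PBRT15, against 7490 and 7630 in parental cells. ARHGAP35, a GTPase-activating protein for small GTPases, had 6481 and 5746 in PBRT16 and 9416 and 9844 in PBRT15, against 5036 and 4997 in parental cells. Both rose in PBRT15 (log2 fold changes 0.84 ± 0.12 and 0.94 ± 0.12) and did not pass in PBRT16 (0.31 ± 0.12 and 0.28 ± 0.12). DMPK, the myotonic dystrophy protein kinase, had 768 and 612 in PBRT16 and 1389 and 1526 in PBRT15, against 216 and 287 in parental cells. RRAS, a RAS-related GTPase, had 1035 and 1209 in PBRT16 and 1190 and 1507 in PBRT15, against 383 and 330 in parental cells. DMPK and RRAS rose in both lines, and only in RRAS did the lines overlap. BRSK1, a kinase of neuronal polarity, fell in both lines, with 174 and 163 in PBRT16 and 221 and 294 in PBRT15, against 585 and 521 in parental cells; its fall in PBRT15 was lost without parental replicate 1.

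The transcription and chromatin group (27 members) had medians of 0.18 in PBRT16 and 0.92 in PBRT15, with 10 rising and 2 falling in PBRT16 and 16 rising and 1 falling in PBRT15. BCL3, an NF-κB cofactor, had 320 and 349 in PBRT16 and 476 and 779 in PBRT15, against 64.5 and 98.1 in parental cells, with no overlap between groups. It met the level through the resistant lines alone, so its values are a description with no p. TEAD2, a transcription factor of the Hippo pathway, had 988 and 1020 in PBRT16 and 1365 and 1524 in PBRT15, against 379 and 340 in parental cells, and rose in both lines by log2 fold changes of 1.48 ± 0.13 and 2.00 ± 0.13. IRF3, the interferon regulatory factor, had 901 and 917 in PBRT16 and 1764 and 1733 in PBRT15, against 768 and 833 in parental cells, so it rose in PBRT15 and did not pass in PBRT16. SUPT5H, an elongation factor of RNA polymerase II, showed the same calls, with 3055 and 3200 in PBRT16 and 5353 and 5973 in PBRT15, against 2728 and 3294 in parental cells. POLR1G, a subunit of RNA polymerase I, fell in both lines, with 290 and 231 in PBRT16 and 349 and 222 in PBRT15, against 663 and 724 in parental cells, and both calls were lost without parental replicate 1 or parental replicate 2 (in PBRT16 also without PBRT16 replicate 2). FOSB, an immediate early transcription factor, had replicates too far apart to place it, at 327 and 1645 in PBRT16 and 587 and 5707 in PBRT15, against 286 and 424 in parental cells. ZFP36, an mRNA decay factor in no role group, was likewise uneven in PBRT15, with 333 and 450 in PBRT16 and 829 and 2566 in PBRT15, against 151 and 121 in parental cells. ZFP36 also met the level through the resistant lines alone, so no p is given for it.

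The adhesion, membrane and cytoskeleton group (19 members) ran from −8.03 to 3.04 in PBRT16 and from −5.88 to 3.36 in PBRT15, with medians of 0.28 in PBRT16 and 0.66 in PBRT15, 8 rising and 5 falling in PBRT16, and 10 rising and 2 falling in PBRT15. Those counted as falling in PBRT15 were MYH14 and CADM4. CADM4 met the level through parental cells alone, and MYH14 met it with the help of its high parental values. MYADM, a membrane protein with MARVEL domains, had 3597 and 3233 in PBRT16 and 4410 and 4389 in PBRT15, against 1035 and 966 in parental cells, and rose in both lines. ACTN4, an actin crosslinker, had 17414 and 14381 in PBRT16 and 22317 and 21606 in PBRT15, against 20047 and 22447 in parental cells, and passed in neither line.

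The RNA processing, translation, proteasome and DNA repair groups were smaller. As in all 10 role groups, their PBRT16 medians were nearer to parental levels than their PBRT15 medians. RNA processing (18 members) had medians of −0.06 in PBRT16 and 0.42 in PBRT15, with 1 rising and 1 falling in PBRT16 and 5 rising and none falling in PBRT15. HNRNPUL1, a nuclear ribonucleoprotein, had 10202 and 9493 in PBRT16 and 15587 and 12443 in PBRT15, against 9568 and 10039 in parental cells, and passed in neither line. CNOT3, a subunit of the CCR4-NOT deadenylase, had 800 and 760 in PBRT16 and 1392 and 1570 in PBRT15, against 1630 and 1682 in parental cells, and it fell in PBRT16 (log2 fold change −1.09 ± 0.12, adjusted p = 0.00311, limma). Ribosome biogenesis and translation (7 members) had medians of −0.08 in PBRT16, where none passed the test, and 0.56 in PBRT15, where 4 rose. MRPS12, a mitochondrial ribosomal protein, had 462 and 412 in PBRT16 and 770 and 765 in PBRT15, against 269 and 357 in parental cells, and rose in PBRT15. The proteasome, ubiquitin and chaperone group (10 members) had medians of −0.19 in PBRT16 and 0.33 in PBRT15, with 1 rising and 1 falling in PBRT16 and 2 rising in PBRT15. UBA2 and SAE1, the subunits of the SUMO-activating enzyme, had differences of −0.43 and −0.56 between PBRT16 and PBRT15. DNA repair and replication (6 members) had medians of −0.15 in PBRT16 and 0.41 in PBRT15, with 1 rising and 2 falling in PBRT16 and 3 rising and 1 falling in PBRT15. POLD1, the catalytic subunit of DNA polymerase delta, had 615 and 621 in PBRT16 and 922 and 1068 in PBRT15, against 369 and 435 in parental cells, and rose in both lines, the call in PBRT16 being lost without parental replicate 1 or either PBRT16 library. ERCC1, of the nucleotide excision repair nuclease, had 1702 and 1416 in PBRT16 and 2156 and 1842 in PBRT15, against 3340 and 3210 in parental cells, and fell in both lines; its call in PBRT15 was lost without either parental library or PBRT15 replicate 2. The secreted, lipoprotein and immune group had 5 members of 25 listed genes at the level of the rule, with medians of −0.05 in PBRT16 and 0.43 in PBRT15. Among them MIA and IL11, which met the level through parental cells alone, lay below parental cells in both lines. The group ran from −7.88 to 2.27 in PBRT15 and reached 0.84 in PBRT16, where MIA was at 0 and has no fold.

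**Figure D5:**
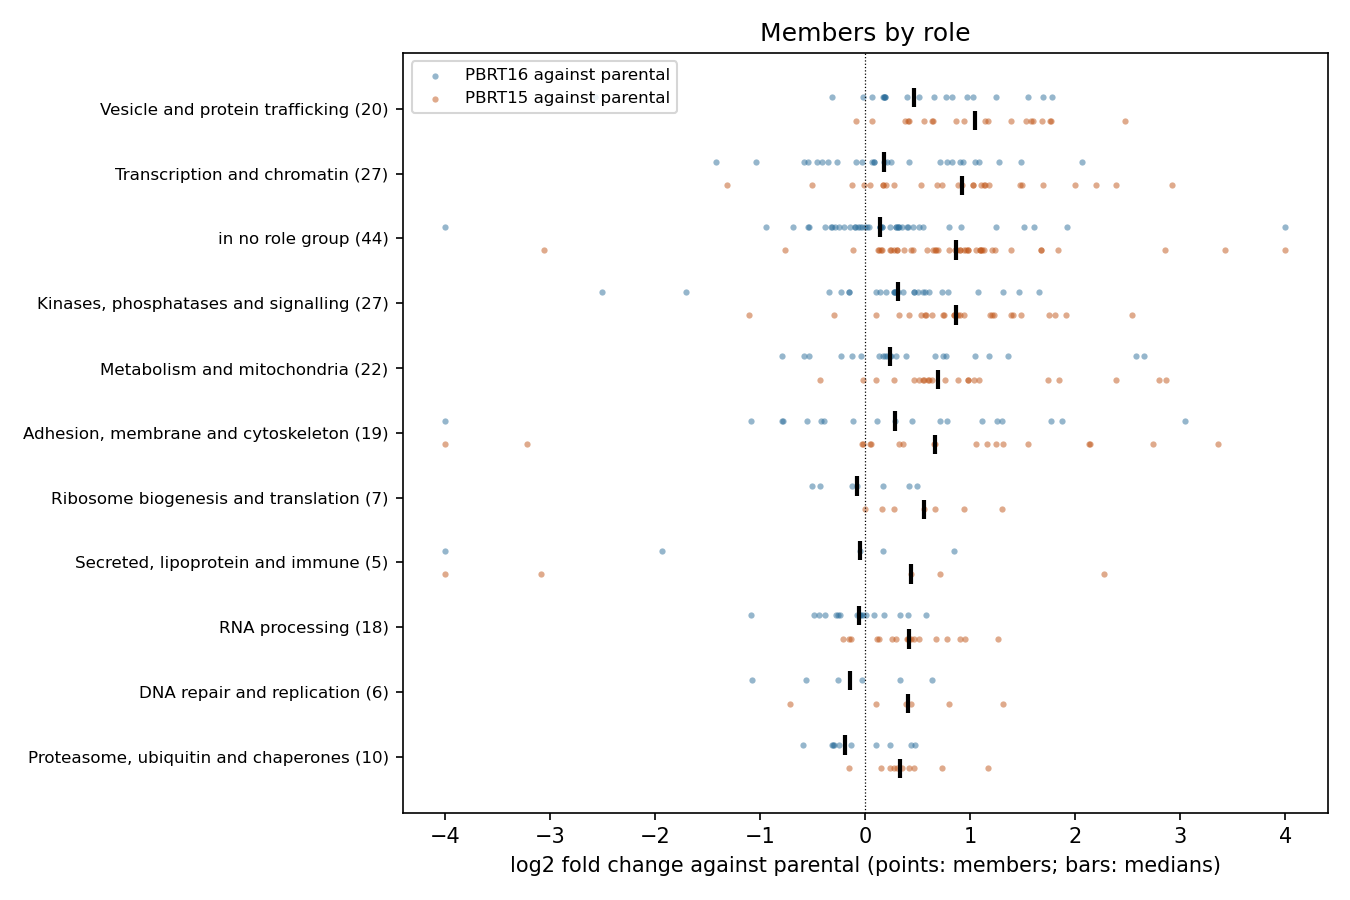
Each point is a member and each bar a group median; the x axis gives the log2 fold change against parental cells for PBRT16 (upper row of each group) and PBRT15 (lower row), and values beyond 4 are drawn at that limit. The bar of PBRT16 lies left of that of PBRT15 in all 10 role groups; in trafficking, for example, they lie at 0.46 and 1.04.

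In each of the 10 role groups, the median difference of PBRT16 from PBRT15 lay between −0.64 and −0.40. For 34 members another protein-coding gene overlaps on the same strand, GPI and HNRNPL among them, and reads from the overlap may be split between the genes. The summed value of the members without FTL was 279657 and 287859 in PBRT16, 399623 and 401268 in PBRT15, and 260046 and 278583 in parental cells. The groups did not overlap, but PBRT16 lay only just above parental cells.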

How the data were processed

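Libraries were made with a kit for stranded mRNA and read from both ends. Per the study's methods and the submitters' notes, the authors aligned reads with STAR to GRCh38 (version 2.6.1a in the notes, a later one in the study's reporting summary), quantified genes with RSEM and used DESeq2. The deposited files hold 1 normalized signal value per gene, a coverage-like value that is not whole, and its scaling was not given in the sources used here; 1.67% to 2.39% of values above 0 were whole within 0.01, so depth is unknown, no counting interval is given and no count test was run, which is the design fixed for such values. After 45 pseudoautosomal copies were left out, 60617 gene IDs remained, of which 60357 were matched by ID without version to GENCODE release 44, which gave positions, strand and gene type; promoter windows came from RefSeq.

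Genes with a value of at least 10, scaled to library totals, in 2 or more libraries and a total of at least 15 were tested (16555). The test was limma 3.58.1 (R 4.3.3) on log2(value + 1), in 1 fit of 3 groups and 6 libraries with 3 residual degrees of freedom, adjusted by Benjamini-Hochberg over all genes tested; fold changes are on this scale, which understates those of low genes. The script was tested on simulated data. The members, role groups and lists were chosen with earlier results of these data known. Named members are the 10 largest rises and falls per comparison with parental cells, the 8 largest non-overlapping differences in each direction between the resistant lines, the 2 highest and 2 most changed members per role group, and those at the thresholds; others are marked in the text or only bound a window, and some members that met this rule are not reported here. Alternatives were other scalings, pseudocounts, filters and levels, a replicate block, fits of 4 libraries, each library left out, and, chosen after seeing the data, a GC content and length correction.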

Additional observations from a re-analysis of the deposited data

Results flagged for a closer look

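For EMC10 the comparisons with parental cells passed the test in opposite directions in the resistant lines. Its log2 fold changes were −2.57 in PBRT16 and 1.68 in PBRT15, with all 4 resistant libraries outside the parental range. The difference itself was not tested, because the comparison of PBRT16 with PBRT15 was treated as one the segment may have been chosen on.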

How the results depend on the processing

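The median log2 difference of PBRT16 from PBRT15 over the members kept its sign and moved by less than the spread between replicates under all alternatives run. Against parental cells, removing each library's trend with GC content and length turned the PBRT16 median to −0.13 and gave a median of 0.36 in PBRT15. The median of all genes tested was then −0.06 in PBRT16 and −0.07 in PBRT15. That fit gave 29 rises and 49 falls in PBRT16, and 14 falls in PBRT15, whose rises are not given here. Shares of all genes tested were not taken for the counts under any of these alternatives, so nothing is read from the counts. With no filter on low values, 46 members passed in PBRT16 (33 rose, 13 fell). A fold of at least 2 in addition left 38 in PBRT16 (27 rose, 11 fell) and 74 in PBRT15 (67 rose). A level of at least 500 left 85 calls in PBRT15 (80 rose, 5 fell) among 135 members, and leaving out no symbol gave a median of 0.63 in PBRT15 over 265 genes. With 1 library left out, the PBRT16 calls ranged from 39 to 70 (rises 26 to 49, falls 12 to 21) and their median from 0.13 to 0.24, and the PBRT15 calls from 87 to 119 (falls 5 to 9) and their median from 0.62 to 0.76. A replicate block gave 66 calls in PBRT16 and 123 in PBRT15; deviations of same-numbered libraries correlated by 0.136 between PBRT16 and PBRT15, 0.0384 between PBRT16 and parental cells and 0.018 between PBRT15 and parental cells, so the numbers were not taken as pairs. Of the 142 results of the 71 named members against parental cells, 7 lost their call under the block and 0 gained one. Over all 14 other fits, 2759 of 2911 results of named members kept their direction and their side of the threshold, 126 lost a call, 25 gained one, and 1 reversed: RBM42 in PBRT16 against parental cells, at −0.02 after the GC content and length correction. The causes of these changes were not tested, apart from the fewer libraries when 1 was left out. Depth is unknown, and 2 libraries per group limit the precision of every value.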
